A study of Mus musculus with 18 samples.

Results

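A set of 10 genes of the cell cycle were followed in the livers of high-fat diet (HFD)-fed mice, namely *Mki67*, *Top2a*, *Cdk1*, *Ccna2*, *Ccnb1*, *Ccnb2*, *Birc5*, *Mcm6*, *Ccnd1* and *Cdkn1a*. They were found by symbol among the 23352 gene symbols of the expression tables, and all 10 were present in every library with a valid estimate. Liver poly(A) RNA of 18 male C57BL6 mice was measured (the null allele was made in eggs of C57BL/6J mice), with 1 library per mouse. The 9 control mice were wild-type (WT), and the 9 *Gpr180*KO mice were homozygous for a germline deletion of exon 6 of *Gpr180* in the whole body, so that every cell type of the liver lacked the exon. *Gpr180* encodes a membrane protein of the G protein-coupled receptor class. Mice of both genotypes were put on HFD at 8 weeks of age, fed it for 12 weeks and examined at 20 weeks. The sample titles come in 2 styles, here called series 1 (4 WT and 4 *Gpr180*KO mice) and series 2 (5 WT and 5 *Gpr180*KO mice), and the labels do not say what the styles stand for. The comparison asks how the liver transcriptome differs when GPR180 is missing under HFD feeding.

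Most hepatocytes of an adult liver are out of the cell cycle, and the liver regains cycling cells after injury or loss of mass. Entry into the cycle is set by D-type cyclins with CDK4 and CDK6, which inactivate the retinoblastoma protein and release E2F factors, and these raise the genes of DNA replication. Cyclin A2, then cyclins B1 and B2 with CDK1, drive the cell through S phase and into mitosis. p21, the product of *Cdkn1a*, inhibits these kinases, is a classic target of p53, and holds genes of late cycle phases down through the DREAM complex. Because whole liver was sampled, fewer cycling cells and less RNA per cycling cell cannot be told apart.

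Values are FPKM, the fragments of a gene scaled to its transcript length and to the mapped reads of the library, as deposited by the authors. Genotypes were compared with limma on log2(FPKM + 0.1), and a gene is said to be called where its Benjamini-Hochberg adjusted p over all genes tested is below 0.05. The fit held the 10835 genes with a mean of at least 1 FPKM, which 7 of the 10 genes reached. *Mki67*, *Cdk1* and *Ccnb1* had a mean below 1 FPKM and are reported apart, from a fit of the 14016 genes with a mean of at least 0.1 FPKM. *Gpr180* itself checked the labels, with 6.79 ± 1.99 FPKM in WT and 1.60 ± 0.371 in *Gpr180*KO (SD, n = 9 each, limma adjusted p = 4.74e-06), and the highest *Gpr180*KO library (1.99) lay below the lowest WT library (4.46). Summed FPKM per library ranged from 554796 to 718746, the highest being KO51, and relative depth estimated from genes with few reads lay between 44.4% (KO319) and 100% (W317). Of 9 hepatocyte markers all were above 1 FPKM, and their summed level was 15823 to 19060 FPKM in WT and 17210 to 31213 FPKM in *Gpr180*KO (at most 19839 without KO51).

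The mean of each of the 10 genes was lower in *Gpr180*KO than in WT livers, at 40.8% (*Ccnb2*) to 61.1% (*Ccna2*) of the WT mean. Across all genes tested at 0.1 FPKM or more, 77.9% had a lower mean log2(FPKM + 0.1) in *Gpr180*KO. Of the 7 genes at 1 FPKM or more, 1 was called lower by limma (*Mcm6*), beside 4.28% of all genes tested that were called lower and 0.452% called higher, and none of the 7 was called higher. None of the 3 genes below 1 FPKM was called by limma, beside 5.54% of the genes of that fit called lower. At an unadjusted limma p below 0.05, 9 of the 10 genes were lower (the exception was *Cdkn1a*), beside 21.8% of all genes. The median log2 difference of the 10 genes was -0.86, and that of all genes was -0.13 in the fit at 1 FPKM and -0.15 in the fit at 0.1 FPKM. After median-of-ratios scaling, which takes that overall shift out, the median of the 10 genes was -0.72 and all 10 still had a lower mean. By limma 0 of 7 were called, beside 1.36% of all genes called lower. Of the 7, 5 had an unadjusted limma p below 0.05, beside 1945 of the 10835 genes in either direction. With that scaling 147 genes of the 10835 were called lower and 146 higher, in place of 464 and 49.

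**Figure D1:**
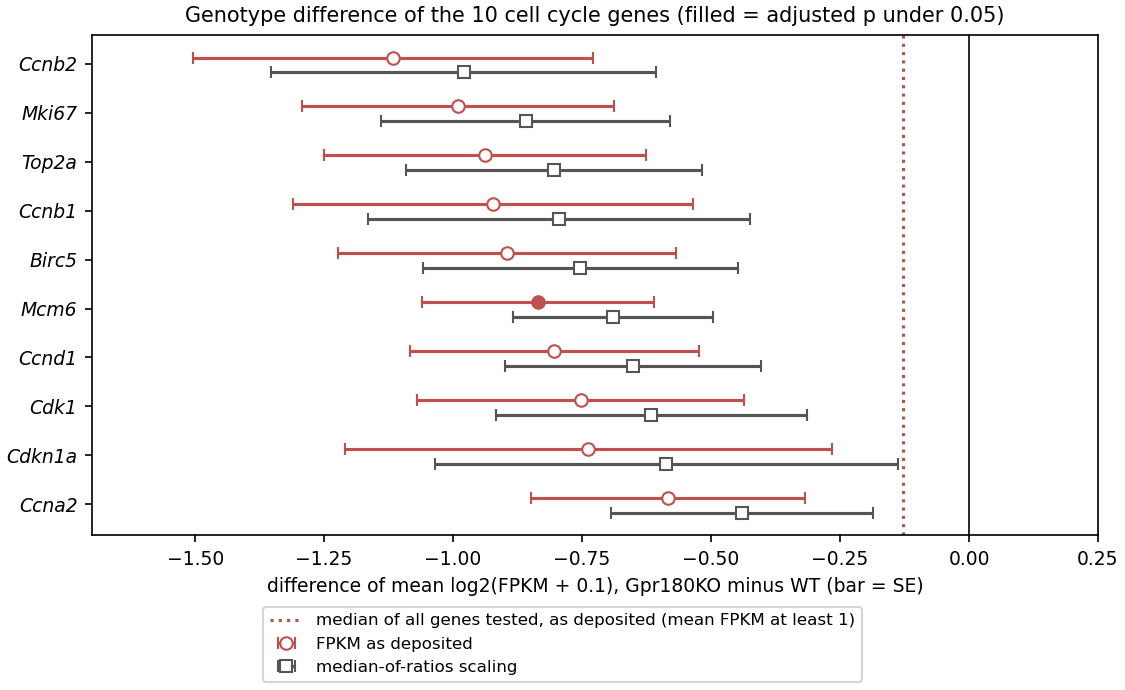
Difference of mean log2(FPKM + 0.1), *Gpr180*KO minus WT, with its SE for each of the 10 genes, as deposited (circles) and after median-of-ratios scaling (squares). Filled symbols have a limma adjusted p below 0.05, which only *Mcm6* as deposited reached, and all 20 values lie left of the dotted line at the median of all genes tested.

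In order of mean level over the 18 libraries, *Ccnd1* (13.6 FPKM) and *Cdkn1a* (8.69) stood above *Mcm6* (2.44), *Birc5* (1.84), *Ccna2* (1.57), *Ccnb2* (1.36), *Top2a* (1.05), *Mki67* (0.994), *Cdk1* (0.972) and *Ccnb1* (0.801). FPKM is per transcript length, so these levels can be set side by side. *Ccnd1* exceeded *Cdkn1a* in 16 libraries, *Cdkn1a* exceeded *Mcm6* in 16 and *Mcm6* exceeded *Birc5* in 15. From *Birc5* down, neighbours in the order exceeded each other in only 7 to 13 libraries, so these 7 genes were not separated from their neighbours by more than their spread.

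*Ccnd1* encodes cyclin D1, the cyclin that links growth signals to entry into the cycle, and lies at chr7:144929931-144939925 (mm10, minus strand). In WT its lowest, median and highest values were 7.48 (W157), 17.2 and 25.4 FPKM (W320), and in *Gpr180*KO 3.84 (KO51), 9.95 and 17.0 FPKM (KO321). All 9 *Gpr180*KO libraries lay below the WT median, and 5 WT libraries lay above every *Gpr180*KO library, so the groups overlapped in part. The means were 17.2 ± 6.31 and 10.1 ± 4.28 FPKM (SD, n = 9 each), a log2 difference of -0.80 ± 0.28 (SE) that was not called (limma adjusted p = 0.0977). The exact two-sided permutation test of the gene alone, over 48620 splits, gave p = 0.0183. The GENCODE annotation has an overlapping gene on the opposite strand (*LTO1*) that shares exon bases with *Ccnd1*, and the sources used here do not say whether the counting used strand.

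*Cdkn1a* encodes p21 and lies at chr17:29090986-29100722 on the plus strand. RefSeq gives it 2 start sites, and the window of 250 bases before to 50 after the upstream one holds the letters CATGNNNNNNCATG, the core of a p53 response element, which is its own reverse complement and occurs in 0.712% of all 32851 windows of this length. The 130 bases before the start are shown since p21 is the gene of the 10 that is known as a p53 target, at chr17:29090849-29090978 (GRCm38.p6, plus strand), with the match at positions -48 to -35 in capitals.
Cdkn1a: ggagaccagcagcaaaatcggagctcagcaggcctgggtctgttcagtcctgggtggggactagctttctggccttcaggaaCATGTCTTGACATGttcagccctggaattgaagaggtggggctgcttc

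The WT livers ranged for *Cdkn1a* from 1.34 (W157) over a median of 11.0 to 18.8 FPKM (W134), a 14.0-fold span, while the *Gpr180*KO livers ranged from 2.53 (KO52) over 5.02 to 9.93 FPKM (KO320). W157 and W156 (2.10 FPKM) were below every *Gpr180*KO library, and the other WT libraries lay between 9.71 and 18.8 FPKM, of which 6 were above every *Gpr180*KO library. The group means were 11.5 ± 6.42 and 5.89 ± 3.001 FPKM, and the log2 difference of -0.74 ± 0.47 was not called (limma adjusted p = 0.361, exact permutation p = 0.174). *Cdkn1a* shares exon bases with *AC167363.2* on the opposite strand in GENCODE. The other CDK inhibitors gave 0 called genes of 3 tested by limma (0 with an unadjusted p below 0.05). Of these, *Cdkn1b* (p27) had 7.07 ± 1.40 FPKM in WT and 6.20 ± 1.13 in *Gpr180*KO, *Cdkn2c* (p18) had 2.27 ± 0.517 and 1.81 ± 0.609, and *Cdkn2d* (p19) had 2.36 ± 0.668 and 2.46 ± 0.666. The remaining 4 of the 7 inhibitors listed were below 1 FPKM.

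*Mcm6* encodes a subunit of the MCM helicase, which is loaded on replication origins in G1 and unwinds DNA in S phase, and lies at chr1:128331591-128359656 on the minus strand. Its promoter was searched on both strands for TTTGGCGC and TTTCCCGC, forms of the E2F site, which occur in 1.56% of all windows, and for CCAAT, the box bound by NF-Y, which occurs in 37.4%. *Mcm6* was the only one of the 8 genes with a RefSeq window that held an E2F form, at -110 to -103 and at -47 to -40, and it held CCAAT on the opposite strand at -57 to -53 and at -14 to -10. These positions count from the RefSeq start, which lies upstream of the gene bounds given above. For *Mcm6*, the bases checked after that start were not found near the start of a GENCODE transcript of the gene. The 130 bases before the RefSeq start are shown because *Mcm6* was the one gene called, from chr1:128359706-128359835 (GRCm38.p6, minus strand), with the E2F and CCAAT matches in capitals.
Mcm6: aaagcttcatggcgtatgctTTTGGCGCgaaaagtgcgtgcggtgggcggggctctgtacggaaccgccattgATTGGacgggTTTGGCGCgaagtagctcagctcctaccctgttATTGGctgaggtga

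The WT values of *Mcm6* were 1.52 (W157) at the lowest, 3.01 at the median and 4.51 FPKM (W318) at the highest, and the *Gpr180*KO values were 0.873 (KO52), 1.83 and 2.51 FPKM (KO321). All WT libraries but W156 (2.27) and W157 lay above every *Gpr180*KO library (7 of 9), and 4 *Gpr180*KO libraries lay below every WT library. The means were 3.13 ± 0.962 and 1.74 ± 0.637 FPKM (SD, n = 9 each), and the log2 difference of -0.83 ± 0.22 was called (limma adjusted p = 0.0392, exact permutation p = 0.00374). The call was near its threshold. It was lost with median-of-ratios scaling (limma adjusted p = 0.0605), and it held in 8 of the 18 fits that left out 1 library, with adjusted p from 0.0103 without W157 to 0.0854 without W317. The libraries whose omission ended the call were W317, W318, W319, W320, W131, W133, KO52, KO53, KO54 and KO56. Without KO51, the library with the highest FPKM and hepatocyte marker sums, the limma adjusted p was 0.0492.

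The cyclins of S phase and mitosis and their kinase followed with lower means and no call. *Ccna2* (chr3:36564865-36571996, minus strand), cyclin A2, ranged from 0.783 (W156) over 1.92 to 3.41 FPKM (W134) in WT and from 0.688 (KO56) over 1.30 to 1.56 FPKM (KO51) in *Gpr180*KO, with a log2 difference of -0.58 ± 0.27, the smallest of the 10 (limma adjusted p = 0.202). A total of 5 WT libraries lay above every *Gpr180*KO library, and 3 *Gpr180*KO libraries lay below every WT library. *Ccna2* shares exon bases with *Exosc9* on the opposite strand in GENCODE.

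*Ccnb2* (chr9:70407689-70421554, minus strand), cyclin B2, ranged from 0.463 (W156) over 1.78 to 3.57 FPKM (W134) in WT and from 0.196 (KO52) over 0.719 to 1.77 FPKM (KO321) in *Gpr180*KO. It had the largest log2 difference of the 10, -1.12 ± 0.39, which was not called (limma adjusted p = 0.0973). Its SD was 59.7% of the mean in WT and 60.6% in *Gpr180*KO.

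*Cdk1* (chr10:69336635-69352912, minus strand), the kinase of mitotic entry, was below 1 FPKM on average. It ranged from 0.226 (W157) over 1.04 to 2.53 FPKM (W134) in WT and from 0.271 (KO52) over 0.626 to 1.09 FPKM (KO321) in *Gpr180*KO, with 4 WT libraries above every *Gpr180*KO library and W157 below every one. The log2 difference was -0.75 ± 0.32 (limma adjusted p = 0.155). *Ccnb1* (chr13:100778739-100786486, minus strand), cyclin B1, had the lowest mean level of the 10 and ranged from 0.205 (W156) over 1.24 to 2.87 FPKM (W134) in WT and from 0.124 (KO52) over 0.482 to 0.874 FPKM (KO319) in *Gpr180*KO. Its log2 difference was -0.92 ± 0.39 (limma adjusted p = 0.154).

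A further 3 genes of chromosome structure and division complete the set. *Top2a* (chr11:98992947-99024189, minus strand), the topoisomerase that untangles replicated DNA, ranged from 0.360 (W157) over 1.41 to 2.62 FPKM (W134) in WT and from 0.300 (KO52) over 0.716 to 1.03 FPKM (KO319) in *Gpr180*KO. All WT libraries but W156 (0.679) and W157 were above every *Gpr180*KO library (7 of 9). The means were 1.44 ± 0.717 and 0.661 ± 0.279 FPKM, and the log2 difference was -0.94 ± 0.31 (limma adjusted p = 0.0843, exact permutation p = 0.0133). A small nucleolar RNA gene (*Gm23451*) shares exon bases with *Top2a* on the same strand in GENCODE.

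*Mki67* (chr7:135689788-135716379, minus strand) encodes Ki-67, which coats mitotic chromosomes and is the usual marker of cycling cells. With a mean below 1 FPKM, it ranged from 0.343 (W157) over 1.41 to 3.05 FPKM (W134) in WT and from 0.212 (KO51) over 0.587 to 0.882 FPKM (KO321) in *Gpr180*KO, with 6 WT libraries above every *Gpr180*KO library. The log2 difference was -0.99 ± 0.30, the closest to a call among the genes below 1 FPKM (limma adjusted p = 0.0559, exact permutation p = 0.00823). *Birc5* (chr11:117849237-117855743, plus strand), survivin of the chromosomal passenger complex, ranged from 0.555 (W157) over 2.35 to 4.41 FPKM (W134) in WT and from 0.540 (KO53) over 1.08 to 2.63 FPKM (KO321) in *Gpr180*KO, with a log2 difference of -0.90 ± 0.33 (limma adjusted p = 0.115).

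**Figure D2:**
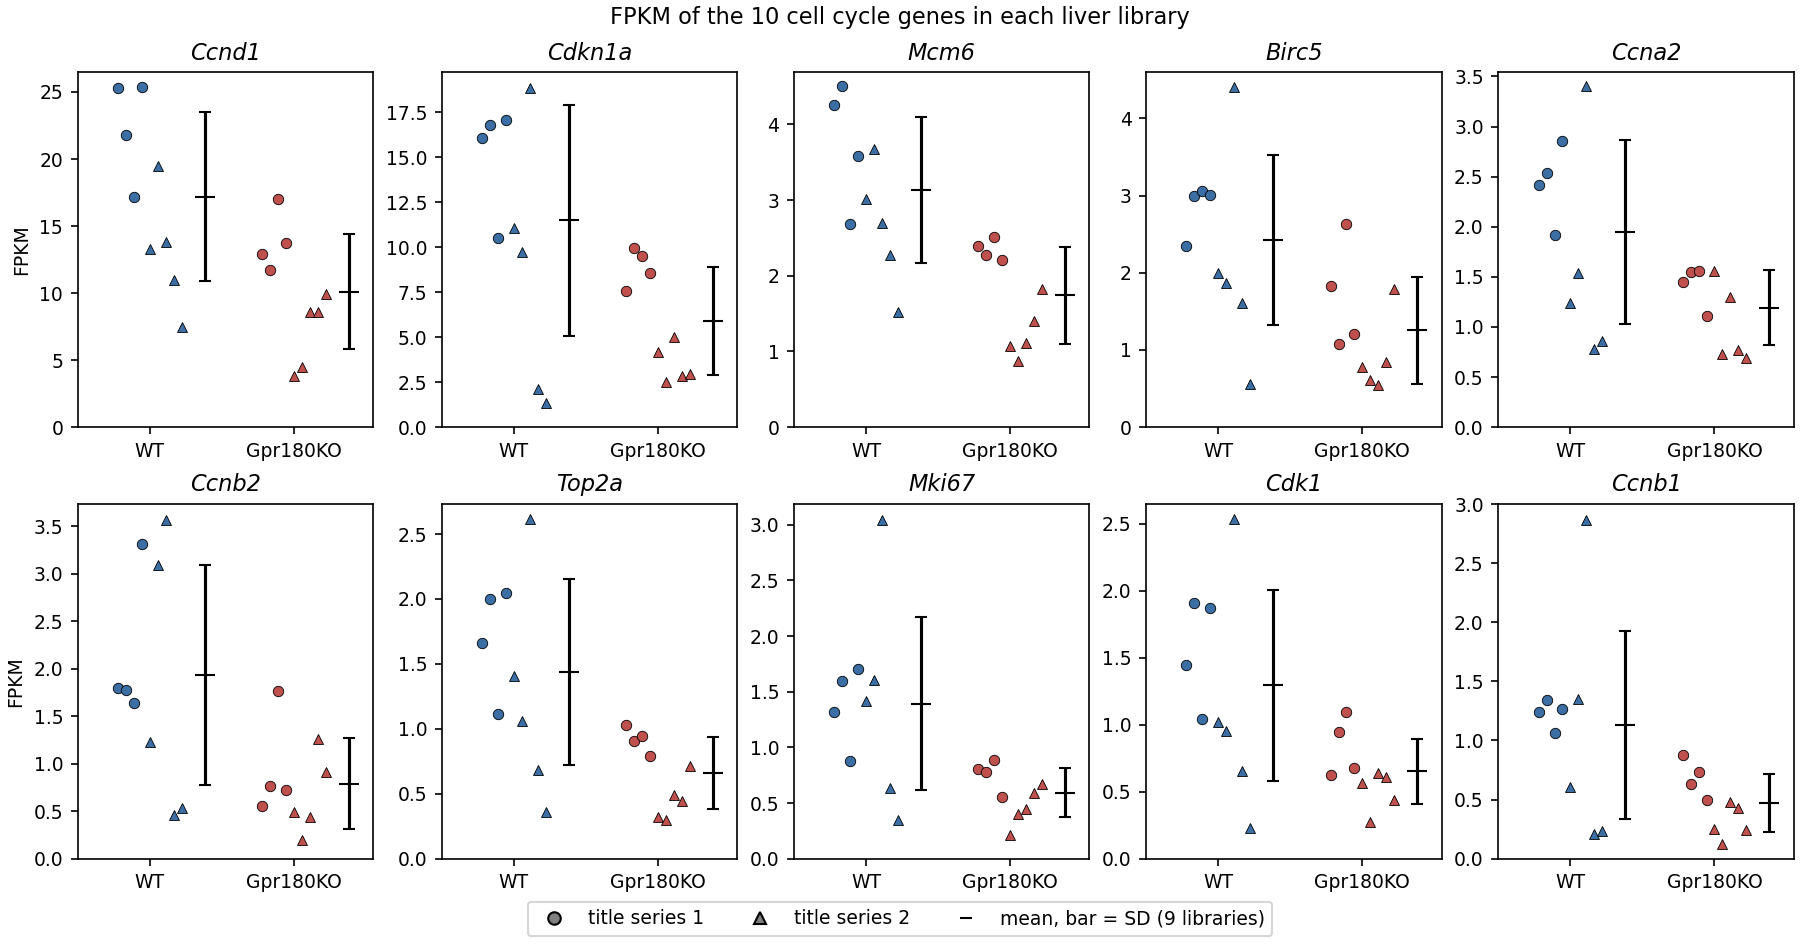
FPKM of each of the 10 genes in the 9 WT and 9 *Gpr180*KO libraries (circles, title series 1, and triangles, title series 2), with the mean and SD of the group beside them. For *Mcm6* and *Top2a*, 7 WT libraries lie above every *Gpr180*KO library, and for all 10 genes the lowest WT points come from series 2.

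The promoters of the 8 genes with a RefSeq window, *Mcm6* and *Cdkn1a* among them, were searched on both strands for CCAAT and for TTTGAA and TTCGAA. The latter are forms of the CHR element through which the DREAM and MuvB complexes act, and occur in 19.2% of all windows. CHR forms were found in 4 of the 8 genes (*Mki67*, *Top2a*, *Cdk1*, *Ccnb2*) and CCAAT in 6 of the 8, and the 4 genes with a CHR form also held CCAAT, a pairing found in 7.52% of all windows. A match is a string of letters and says nothing of binding. *Top2a* (chr11:99024190-99024319) and *Cdk1* (chr10:69352913-69353042) are shown as examples of the pairing, both from the minus strand of GRCm38.p6, over the 130 bases before the start with CHR forms and CCAAT or its complement in capitals.
Top2a: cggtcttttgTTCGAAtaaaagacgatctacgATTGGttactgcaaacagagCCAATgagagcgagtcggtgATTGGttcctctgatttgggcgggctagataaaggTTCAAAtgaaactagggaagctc
Cdk1: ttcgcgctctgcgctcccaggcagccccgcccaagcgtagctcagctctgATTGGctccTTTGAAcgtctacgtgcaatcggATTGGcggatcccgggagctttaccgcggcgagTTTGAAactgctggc

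In *Top2a* the CHR form nearest to the start lay at -23 to -18 and the nearest CCAAT at -58 to -54, and in *Cdk1* they lay at -15 to -10 and at -48 to -44. In *Ccnb2* a CHR form lay at positions 5 to 10 after the start, with CCAAT boxes at -87 to -83, -54 to -50 and -21 to -17. In *Mki67* CHR forms lay at -116 to -111 and -98 to -93. *Ccnb1* held CCAAT at -99 to -95 and -67 to -63. *Birc5* held none of the letters searched.

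The spread within WT came from the same livers for gene after gene. W156 and W157, both of series 2, were the 2 lowest WT libraries for all 10 genes, and W157 was below the *Gpr180*KO mean for all 10. W134, also of series 2, was the highest WT library for 8 genes. Among *Gpr180*KO, KO52 was among the 2 lowest for all 10 genes and KO321 among the 2 highest for all 10. The 10 values of a library come from 1 liver and share its depth and scaling, so the genes are not separate observations. What made these livers low or high for the 10 genes was not tested. Leaving out W157 moved the count of called genes more than any other library. Without it 5 of the 7 genes at 1 FPKM or more were called lower by limma (*Birc5*, *Ccnb2*, *Ccnd1*, *Mcm6*, *Top2a*), beside 7.79% of all genes of that fit. Of the 3 below 1 FPKM, *Cdk1* and *Mki67* were called, beside 1412 of the 14016 genes of the fit at 0.1 FPKM called lower. *Cdkn1a* was not called with any single library left out (limma adjusted p between 0.101 and 0.485).

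**Figure D3:**
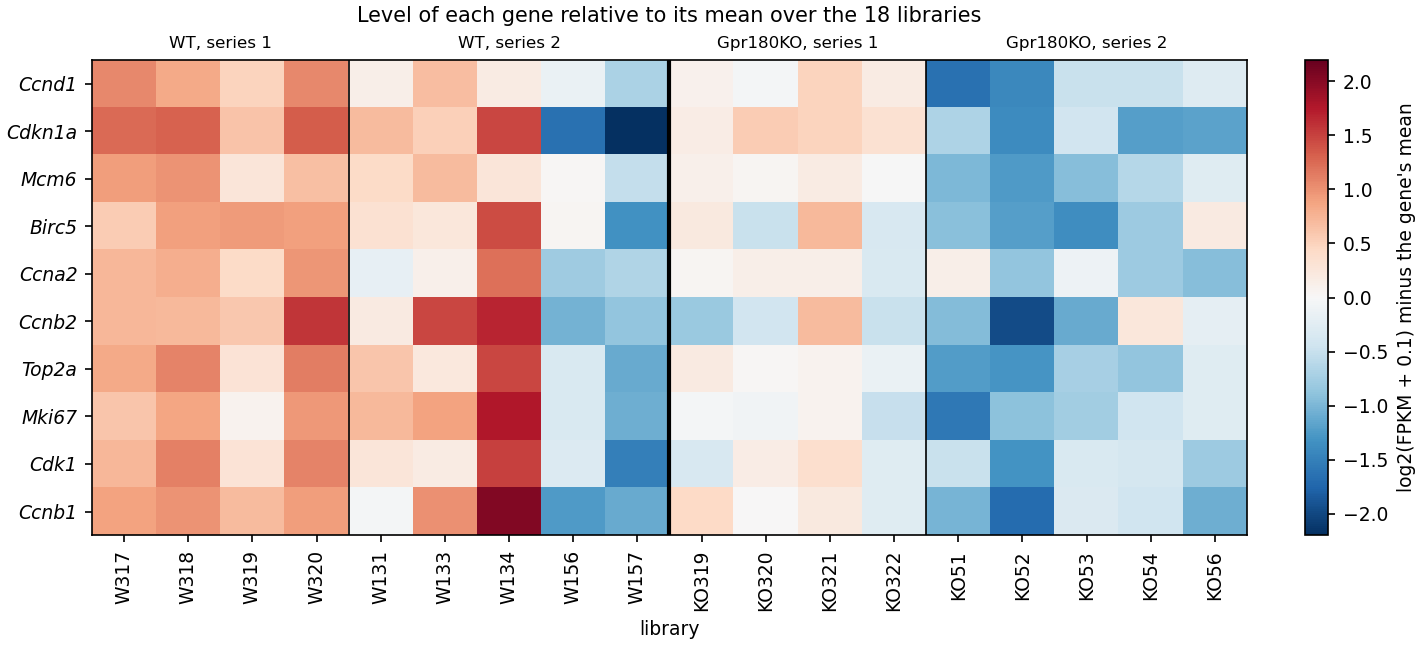
Level of each of the 10 genes in each library, as log2(FPKM + 0.1) minus the gene's mean over the 18 libraries (red above, blue below), with libraries ordered by genotype and title series. Columns W156, W157 and KO52 are blue for most genes, and W134 is red for all.

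The title series are set side by side within each genotype as a description, with no test. In *Gpr180*KO all 10 had a lower mean in series 2 than in series 1, and for 5 (*Top2a*, *Ccnb1*, *Mcm6*, *Ccnd1*, *Cdkn1a*) every series 2 library lay below every series 1 library, beside 11.9% of all genes. *Cdkn1a* was 7.54 to 9.93 FPKM in the *Gpr180*KO libraries of series 1 and 2.53 to 5.02 in those of series 2, and *Ccnd1* was 11.7 to 17.0 and 3.84 to 9.95 FPKM. In WT 9 of the 10 had a lower mean in series 2 (the exception was *Mki67*), but for 0 of the 10 did the series not overlap, beside 11% of all genes. Both series held both genotypes, so the comparison was repeated within each.

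Within series 1 the genotypes were separated for most of the genes. Every *Gpr180*KO library lay below every WT library for 6 of the 10 (*Top2a*, *Ccna2*, *Ccnb1*, *Mcm6*, *Ccnd1*, *Cdkn1a*), beside 11.5% of all genes. *Ccnd1* was 17.2 to 25.4 FPKM in WT and 11.7 to 17.0 in *Gpr180*KO, *Cdkn1a* was 10.5 to 17.0 and 7.54 to 9.93 FPKM, and *Top2a* was 1.11 to 2.04 and 0.794 to 1.03 FPKM. With 4 against 4 libraries the exact permutation test cannot go below p = 0.0286, which these 6 genes reached. With series 1 alone limma called 5 of the 7 genes at 1 FPKM or more (*Ccna2*, *Ccnd1*, *Cdkn1a*, *Mcm6*, *Top2a*), beside 4.5% of all genes.

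Within series 2 the groups overlapped for all 10 genes, beside 5.31% of all genes that did not overlap with *Gpr180*KO lower. The mean was lower in *Gpr180*KO for each gene, at 29.2% (*Ccnb1*) to 64.5% (*Ccna2*) of WT. *Mcm6* had 2.63 ± 0.806 FPKM in WT and 1.26 ± 0.371 in *Gpr180*KO (SD, n = 5 each, exact permutation p = 0.0159), and *Cdkn1a* had 8.61 ± 7.19 and 3.50 ± 1.06 FPKM (exact permutation p = 0.349). With series 2 alone limma called 0 of the 7 genes and 0% of all genes. Of the 7, 3 had an unadjusted limma p below 0.05, beside 2019 of the 10835 genes in either direction. The genotype difference itself was not shown to differ between the series. Limma's interaction term was called for 0 of the 10 genes (0 with an unadjusted p below 0.05) and for 0 of the 14016 genes tested, 7.24% of which had an unadjusted p below 0.05. In fits of each series alone, the log2 differences of *Cdkn1a* were -0.74 ± 0.16 (SE) in series 1 and -0.73 ± 0.65 in series 2. Those of *Mcm6* were -0.63 ± 0.15 and -0.997 ± 0.25. With SEs of this size, equal differences in both series are not shown either. With the series as a block in the fit of all 18 libraries, limma called *Ccnd1* and *Top2a* beside *Mcm6*, 3 of the 7, beside 9.52% of all genes.

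Each deposited FPKM comes with a lower and an upper bound from the authors' quantification, which covers the uncertainty of the estimate in 1 library and not the spread between mice. From library to library, the mean distance from the value to its bounds was 5.42% to 13.7% of the value for *Ccnd1* and 26.3% to 76.0% for *Ccnb2*. For *Mki67*, the lower bound of the WT library exceeded the upper bound of the *Gpr180*KO library in 61 of the 81 pairs of a WT and a *Gpr180*KO mouse, and the reverse held in 6. For *Birc5* this was 35 and 2 of 81, and for *Cdkn1a* 54 and 15, the largest count in the reverse direction.

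The other genes of the cycle were counted in 5 lists. Over all 5, 72 of 117 genes reached 1 FPKM, and 62 of the 72 had a lower mean log2(FPKM + 0.1) in *Gpr180*KO. Counts of lower means in these lists are on that scale. By limma 4 of the 72 were called lower and 0 higher (5.56% lower, beside 4.28% of all genes), and the median log2 difference was -0.20. After median-of-ratios scaling 49 of the 72 had a lower mean, the median was -0.05 and 1 was called lower by limma (*Cdk6*), beside 1.36% of all genes. Among 30 mitosis genes, 11 were tested and 2 were called lower, *Mad2l1* of the spindle checkpoint (3.04 ± 0.737 FPKM in WT, 1.98 ± 0.336 in *Gpr180*KO, limma adjusted p = 0.0393) and *Cdca3*, a trigger of mitotic entry (3.11 ± 1.40 and 1.51 ± 0.691 FPKM, limma adjusted p = 0.0485). After median-of-ratios scaling neither was called (limma adjusted p = 0.10 and 0.0915). In the fit at 0.1 FPKM, on FPKM as deposited, all 30 mitosis genes were tested, with a median log2 difference of -0.69. All 30 had a lower mean in *Gpr180*KO (beside 77.9% of all genes), and 7 were called lower by limma (beside 5.54%). Median-of-ratios scaling left 249 of all 14016 genes called lower, in place of 776, and the median of all genes at -0.003. At 0.1 FPKM the 30 genes are given as deposited only. Chosen after their values were seen, *Aurkb*, the kinase partner of survivin, had 0.659 ± 0.265 and 0.258 ± 0.109 FPKM (limma adjusted p = 0.0152), and *Hmmr*, a spindle assembly factor, had 1.15 ± 0.627 and 0.538 ± 0.148 FPKM (limma adjusted p = 0.0320).

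Of 30 genes of replication and S phase, 19 were tested and 0 were called by limma, with a median of -0.23. At an unadjusted limma p below 0.05, 6 were lower and 2 higher, beside 2403 of the 10835 genes in either direction. The other MCM subunits *Mcm2* (-0.68 ± 0.23), *Mcm3* (-0.54 ± 0.20), *Mcm4* (-0.43 ± 0.20) and *Mcm5* (-0.57 ± 0.22) had negative log2 differences, and *Mcm7* had -0.05 ± 0.12. Those with higher means in *Gpr180*KO at an unadjusted p below 0.05 were *Tk1*, thymidine kinase (8.17 ± 0.933 and 10.7 ± 2.79 FPKM), and *Mcm10* (12.8 ± 2.89 and 17.3 ± 6.35 FPKM), named after their values were seen. Of 25 G1 cyclins, CDKs and E2F genes, 20 were tested and 1 was called lower, *Cdk6*, the partner of cyclin D1 (2.88 ± 0.606 and 1.68 ± 0.547 FPKM, limma adjusted p = 0.0264), which was also called after median-of-ratios scaling (limma adjusted p = 0.0489). The median of this list was -0.17, near that of all genes.

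Of 25 p53 targets other than *Cdkn1a*, 19 were tested, and all 19 had a lower mean log2(FPKM + 0.1) in *Gpr180*KO. The mean FPKM of *Gadd45a* was nevertheless higher in *Gpr180*KO (4.04 ± 1.37 in WT and 4.70 ± 2.53 in *Gpr180*KO). By limma 1 of the 19 was called lower, *Gdf15*, a stress-induced hormone (8.62 ± 4.03 and 3.70 ± 2.18 FPKM, limma adjusted p = 0.0302). The list median was -0.24. After median-of-ratios scaling 15 of the 19 had a lower mean, the median was -0.09 and *Gdf15* was not called (limma adjusted p = 0.0512). In the fit at 0.1 FPKM, on FPKM as deposited, all 25 were tested and 4 were called lower by limma, beside 5.54% of all genes. *Mdm2*, the p53 feedback regulator, had 8.55 ± 1.41 and 7.66 ± 1.39 FPKM (log2 difference -0.16 ± 0.13), and *Ccng1* had 19.5 ± 3.18 and 16.4 ± 2.80 FPKM (-0.25 ± 0.12).

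**Figure D4:**
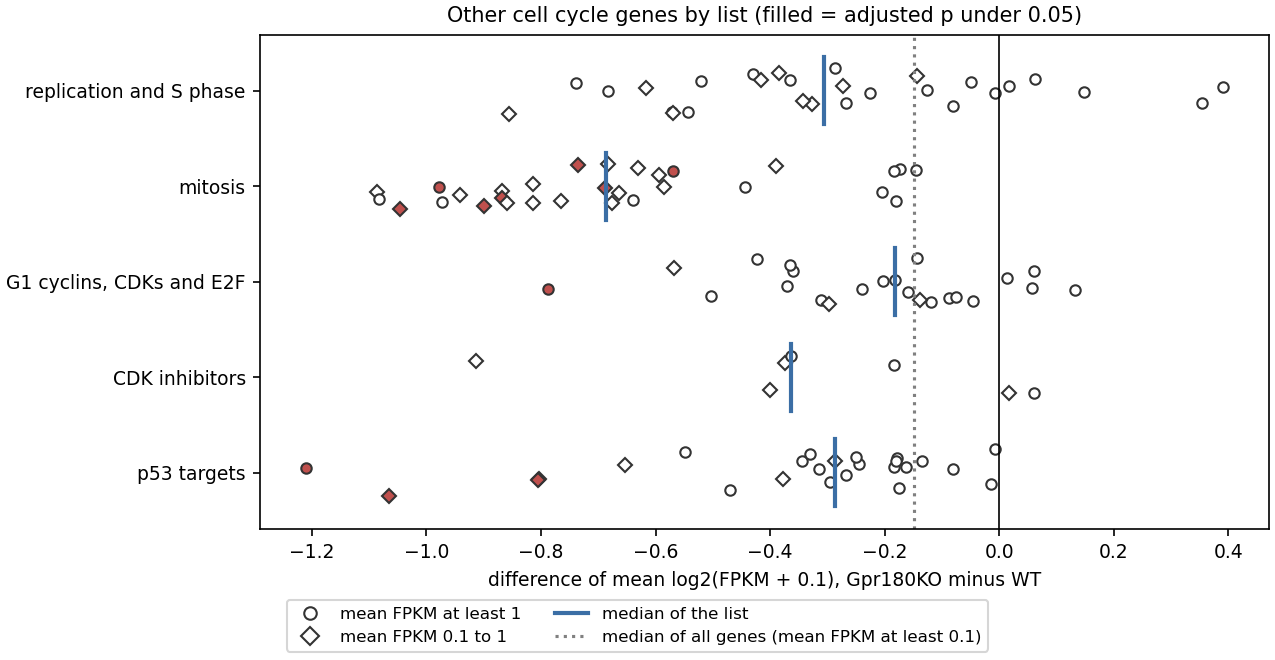
Difference of mean log2(FPKM + 0.1), *Gpr180*KO minus WT, of each gene of 5 cell cycle lists, on FPKM as deposited. Values are from the fit at 1 FPKM (circles) or, for genes below it, the fit at 0.1 FPKM (diamonds). Filled symbols have a limma adjusted p below 0.05, blue bars are list medians, and all 30 mitosis genes lie below 0.

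Genes of likeness to 3 of the genes were sought by the root mean square difference over the 18 libraries of log2(FPKM + 0.1), centred on each genotype's mean and divided by the SD, among 10828 genes. The measure leaves out the genotype difference, and a value near 0 means that 2 genes go up and down in the same livers. For *Cdkn1a* the nearest were *Acvrl1* (0.344), *Rtn4rl1* (0.399), *Metrnl* (0.409), *Slc16a1* (0.411) and *Cd2bp2* (0.426), where the median of all genes was 1.19. For *Ccnd1* they were *Prkcd* (0.311), *Mcm2* (0.314), *Atp6ap1* (0.353), *Ugdh* (0.358) and *Apmap* (0.387), and for *Top2a* they were *Dock2* (0.232), *Chtf8* (0.371), *Cdc20* (0.393), *Rtn4rl1* (0.410) and *D6Wsu163e* (0.416). Among the 10 genes themselves, *Mcm6* and *Ccnd1* (0.381), *Mki67* and *Top2a* (0.394) and *Cdk1* and *Cdkn1a* (0.408) lay closest.

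Markers of some other liver cell types were called between the genotypes, where 4.28% of all genes were called lower and 0.452% higher by limma. Of 7 stellate cell markers, 4 were called lower in *Gpr180*KO (*Dcn*, *Pdgfrb*, *Col1a1*, *Col3a1*), and *Lrat*, *Reln* and *Des* were not called. The summed level was 141 to 274 FPKM in WT and 78.3 to 138 in *Gpr180*KO, without overlap. Much of this sum was *Dcn*, which alone was 116 to 196 and 63.8 to 103 FPKM. Of 5 cholangiocyte markers, 2 reached 1 FPKM and both were called lower (*Sox9*, *Spp1*), with sums of 40.8 to 226 and 17.4 to 51.0 FPKM. *Spp1* made up most of these sums, at 36.8 to 223 FPKM in WT and 14.9 to 47.7 in *Gpr180*KO. *Krt19*, *Krt7* and *Epcam* were below 1 FPKM. In the fit with the lower minimum they had negative log2 differences and were not called by limma. After median-of-ratios scaling *Sox9* was not called (limma adjusted p = 0.137). Of 7 neutrophil markers, 3 reached 1 FPKM and 0 were called, with sums of 2.80 to 38.9 and 3.99 to 10.3 FPKM. All 3 were lower at an unadjusted limma p below 0.05, beside 2403 of the 10835 genes in either direction. Of 8 macrophage markers, 7 were measured and 1 (*Cd68*) was called lower, with sums of 130.97 to 293 and 149 to 216 FPKM. Of 9 hepatocyte markers 1 was called higher, and of 7 endothelial markers 0 were called (0 unadjusted). All 8 T and NK cell markers and all 5 measured B cell markers were below 1 FPKM, with sums of at most 4.80 and 4.09 FPKM. Of the other lists, 0 of 3 erythroid and 0 of 1 adipocyte markers tested were called, though *Alas2* of the erythroid list was called higher after median-of-ratios scaling (log2 difference 0.57, limma adjusted p = 0.0449), and no marker of any list was at 0 in every library. W157 had the lowest WT sum for the neutrophil (2.80) and stellate cell (141) lists, where W156 had 8.36 and 193. W134 had the lowest WT sum for the cholangiocyte (40.8) and hepatocyte (15823) lists. For the macrophage (130.97), T and NK cell (1.98), B cell (0.997) and endothelial (113) lists it was W131. The share of these cell types in the differences of the 10 genes was not tested.

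**Figure D5:**
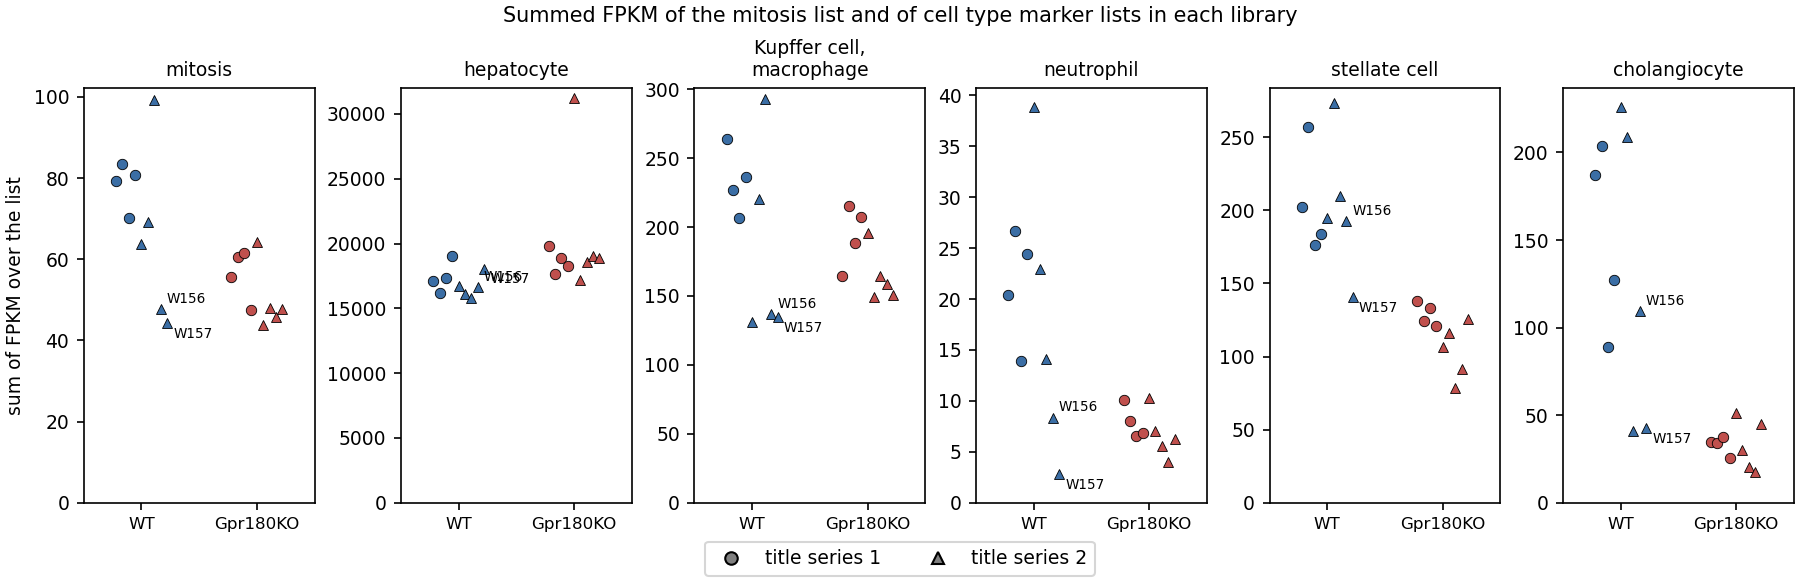
Summed FPKM of the mitosis list and of 5 cell type marker lists in each library (circles, title series 1, and triangles, title series 2), with W156 and W157 labelled. The stellate cell sums do not overlap between the genotypes (141 to 274 and 78.3 to 138 FPKM), and W156 and W157 have the lowest WT sums of the mitosis list.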

How the data were processed

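Liver poly(A) RNA of 18 mice (9 per genotype, groups from the sample labels) was sequenced by the authors as single reads of 75 bp and aligned to mm10 with the TopHat Alignment application. They deposited FPKM per gene with bounds and a status. FPKM came out of that application, whose quantification tool, annotation and use of strand are not given in the sources used here. The deposited files are not counts, so no count test was run and depth is known only in relative terms. Entries of a symbol were summed, and 24 genes with failed estimates were left out (none of the 10). Genes were compared by limma 3.58.1 in R 4.3.3 (lmFit, eBayes with trend) on log2(FPKM + 0.1), and p was adjusted by Benjamini-Hochberg across every gene of the fit. Single genes were also compared by an exact two-sided permutation test. Tests were checked on simulated data. The genes and lists were chosen with earlier results of these data known. Of the genes beyond the 10, some were named by rule: up to 6 called genes per list with the lowest adjusted p, and the 5 genes nearest to *Cdkn1a*, *Ccnd1* and *Top2a*. The other genes named were chosen after their values were seen. Promoter windows came from RefSeq (GRCm38.p6) and matched 8 of the 10 genes by symbol (not *Ccna2* and *Ccnd1*). Gene bounds are those of the files, and overlaps came from the GENCODE annotation of GRCm38. Python 3.11.15, numpy 2.4.6, pandas 2.3.3 and matplotlib 3.10.9 were used. Alternatives were other pseudocounts (0.01 and 1), other minimums (0.1 FPKM, 5 FPKM, or no filter), scaling by median-of-ratios, by the 75th percentile or to TPM, the title series as a block or each alone, array weights, robust eBayes, each library left out and, chosen after seeing the data, the shared title numbers as a block.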

Additional observations from a re-analysis of the deposited data

Results flagged for a closer look

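Each of the 10 genes was tested in each genotype for a library far from the other 8 (20 groups, of which chance flags about 1 in 20), and 1 was found. *Birc5* had 0.555 FPKM in the WT library W157, where the other WT libraries lay between 1.61 and 4.41 FPKM. The gap was measured on the log2 scale of the limma fits and not on FPKM. On that scale it was 0.497 of the range, just above Dixon's 95% critical value for 9 libraries.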

How the results depend on the processing

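The 10 genes kept a lower mean in *Gpr180*KO under every alternative run (14 or 15 settings per gene at 1 FPKM or more and 13 below it, and each library left out). Calls were less stable, and the number of genes called over the whole fit moved too. Of the 10835 genes at 1 FPKM or more, limma called 464 lower in the reported fit and 488 with series 1 alone. It called 1031 lower with the title series as a block, 1161 with array weights and 844 without W157. Of the 7 genes at 1 FPKM or more, 1 was called in the reported fit, 0 with a minimum of 5 FPKM (2 genes tested), with no minimum, with median-of-ratios scaling, with 75th percentile scaling and with series 2 alone, 2 with array weights and with the block on median-of-ratios values, 3 with the block on FPKM as deposited and 5 with series 1 alone, and between 0 and 5 with 1 library left out. Of the 3 genes below 1 FPKM, 0 were called in the reported fit, 1 with a pseudocount of 1, with the block, with series 1 alone and with array weights, and between 0 and 2 with 1 library left out. Of the 14016 genes of that fit, 776 were called lower as reported, 882 with a pseudocount of 1 and 1549 with the block. Series 1 alone gave 530, array weights 1620, and the fit without W157 1412. Of the other cell cycle genes, 4 of 72 were called in the reported fit, 12 of 113 at a minimum of 0.1 FPKM, 1 of 30 at 5 FPKM and 7 of 117 with no minimum. Over all genes, those called lower at these other minimums were 776 of 14016, 200 of 6742 and 613 of 18012. Of the 72, 1 was called with median-of-ratios and 2 with 75th percentile scaling, and 13 with the block (12 lower and *Tk1* higher). With series 2 alone 0 were called, and 10 with array weights. At an unadjusted limma p below 0.05, 23 of the 72 passed with series 2 alone, beside 2019 of the 10835 genes. The block on median-of-ratios values called 5 (3 lower, and *Tk1* and *Mcm10* higher), beside 332 of all genes called lower and 303 higher. Leaving out 1 library gave between 0 (without W133 or KO53) and 10 (without W157). A minimum changes the number of genes adjusted for, and the other causes were not tested. The difference between series was called for 0 of the 10 genes under every alternative run. By median instead of mean, *Cdk1* came before *Mki67* and the other 8 places were kept. The titles give W319 and KO319, and W320 and KO320, the same number, and no label says that it marks a pair. Deviations from the genotype means correlated across genes at r = 0.08 between the former and 0.13 between the latter. A replicate block for these 2 numbers, chosen after seeing the data, left 0 of the 7 genes called (*Mcm6* had a limma adjusted p of 0.0510). It left 0 of the 3 below 1 FPKM and 2 of the other cell cycle genes called. Over all genes, limma with this block called 285 of 10835 lower in place of 464, and 561 of 14016 in place of 776. Genes near 1 FPKM rest on few reads, and the depth behind them is not in the files.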
